A study of Mus musculus with 6 samples.

Results

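Cyclins are the regulatory partners of the cyclin-dependent kinases (CDKs), and their rise and fall moves a cell through its division cycle. D-type cyclins act with Cdk4 and Cdk6 in G1, E-type cyclins with Cdk2 at the entry into S phase, cyclin A2 with Cdk2 and Cdk1 in S and G2 phase, and B-type cyclins with Cdk1 in mitosis. Naive T cells rest outside the cycle and divide fast once their antigen receptor is engaged, and cyclins D2 and D3 are the main D-type cyclins of lymphocytes. The genes described here are cyclins of the cell cycle, taken by symbol from the rows of the expression table that name a single gene. Of the 9 cyclin genes asked for, 6 had such a row, 1 row each, among 30702 genes in all: Ccnd2, Ccnd3, Ccne1, Ccne2, Ccna2 and Ccnb2. Ccnd1 and Ccnf are not analysed here because their rows also name another gene, and Ccnb1 is not analysed here because no row was named by it. The 6 genes were not filtered on level.

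The table comes from Affymetrix arrays of mouse T cells, 3 cultured without glutamine and 3 with glutamine, an amino acid that dividing cells use for energy and for building nucleotides. Both groups began as sorted naive CD4+ T cells, were stimulated through CD3 and CD28 for 3 days in medium with 10% serum, 20 ng/ml IL-6, 20 ng/ml IL-23, 1.25 ng/ml TGF-beta and blocking antibodies against IFN-gamma, IL-4 and IL-12 at 10 ug/ml each, and differed by label in glutamine alone. The arrays are labelled as biological replicates, but the labels name no mouse, strain or age, so that the spread behind each p-value is that between arrays and may be technical. Levels are log2 RMA values, and every change is given on that scale as without minus with glutamine.

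The 7 measured T cell markers were bright in both groups, with Cd3e at 16.90 log2 without glutamine and 16.89 log2 with it. By the test described below, 2 of the 7 were called higher without glutamine, where 9.3% of all genes were, and 5 did not pass. Cd3d averaged 12.85 log2 without glutamine and 11.97 log2 with it, and Cd5 17.34 log2 without and 16.83 log2 with it. Whether signals above 16 log2, as for Cd3e and Cd5, were still proportional to RNA was not tested. Of 5 measured TH17 markers, 4 were called lower without glutamine, where 13.0% of all genes were. Il17a, the gene of the defining cytokine, averaged 5.94 log2 without glutamine and 12.75 log2 with it, and Il17f 11.62 log2 without and 15.13 log2 with it. Il23r averaged 7.996 log2 without glutamine and 12.82 log2 with it, and Ccr6 7.84 log2 without and 9.65 log2 with it. Rora averaged 11.33 log2 without glutamine and 11.39 log2 with it. Of 22 measured markers of CD8 T, B, myeloid, NK, erythroid and fibroblast cells, 3 exceeded 5 log2 in either group. Among the 22, 2 were called lower without glutamine, Cd8b1 and Lyz2, a share not above the 13.0% of all genes called lower. The median level of an array lay between 4.33 and 4.38 log2 without glutamine and between 4.18 and 4.21 log2 with it.

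The cyclin genes of S phase and mitosis were much lower in the cultures without glutamine, while those of G1 were slightly lower or did not pass the test. Of the 6 genes, 5 fell past the threshold (limma, Benjamini-Hochberg adjusted p under 0.05 over all genes), against 13.0% of all genes that were lower by that test. None of the 6 was called higher at the adjusted threshold, where 9.3% of all genes were, and for 6 genes a count of 0 is near that share. At an unadjusted p under 0.05 in limma 0 of the 6 were higher as well, and the share of all genes at that limit is not given here. By at least 1 log2, 4 of the 6 fell, against 2.84% of all genes. When only genes above the median level were tested, 4089 were lower, against 3988 among all 30702 genes. The share lower was thus above 13.0% in that part, where all 6 cyclins stood and 5 fell. The 13.0% set beside the gene lists below has the same limit. The median change of the 6 was -1.23, and that of all genes was 0.060. In these bulk cultures, fewer cells in a phase of the cycle and less cyclin RNA per cell cannot be told apart.

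**Figure D1:**
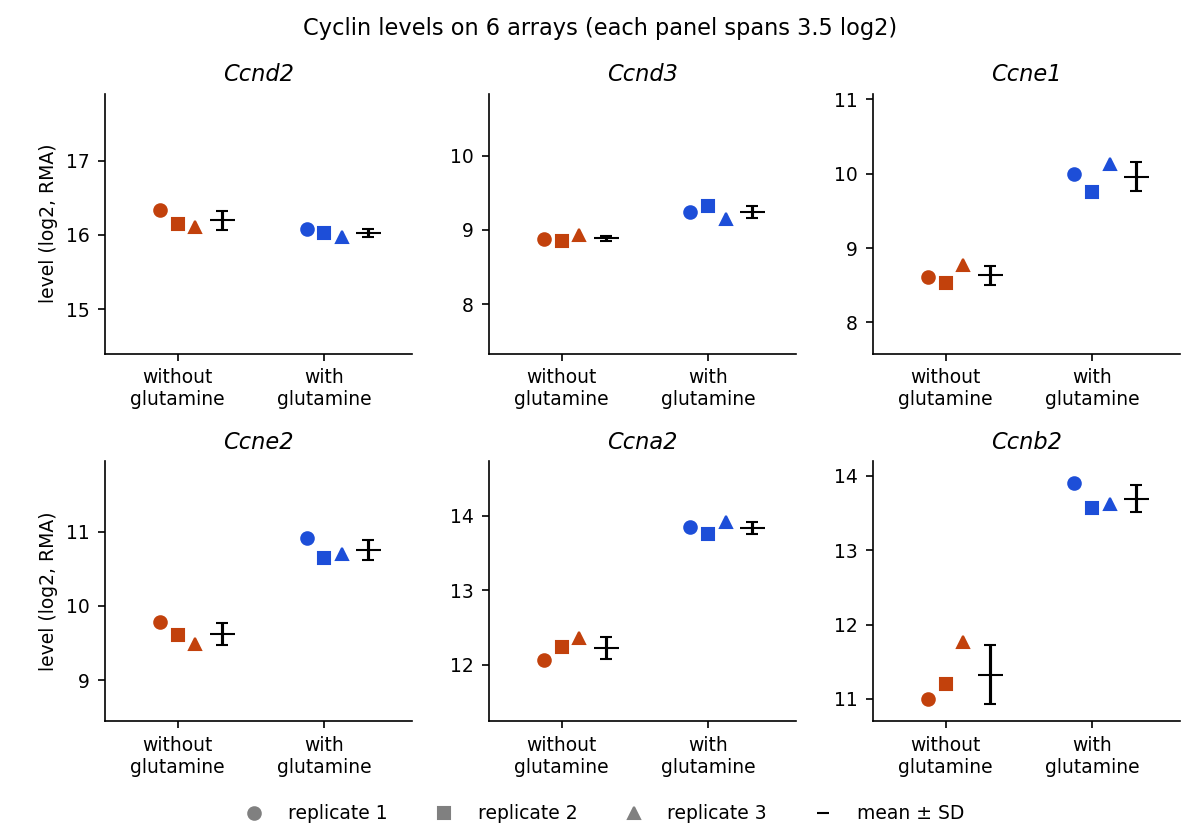
Level of each cyclin gene on each array (log2 RMA, vertical axis), cultures without glutamine in orange and with glutamine in blue; symbols mark the replicate number and bars the mean ± SD of 3 arrays. The groups lie 1.79 log2 apart for Ccnb2 and 0.017 log2 apart for Ccnd2, the only gene of the 6 whose arrays are higher without glutamine.

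Ccnb2 encodes cyclin B2, an activator of Cdk1 in mitosis, and it fell the most of the 6. Its levels were 11.00, 11.21 and 11.77 log2 without glutamine, against 13.90, 13.56 and 13.62 log2 with glutamine. Every array without glutamine lay below every array with it, and replicate 3 without glutamine stood highest in its group. The change was -2.37 (SE 0.20, 95% interval -2.86 to -1.88, limma adjusted p = 0.000772). Only 89 of the 30702 genes fell further. A pseudogene row named Ccnb2-ps stayed dim in both groups, at 3.47 ± 0.17 log2 without glutamine and 3.54 ± 0.18 log2 with it (SD, n = 3 each; limma adjusted p = 0.717).

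Ccna2 encodes cyclin A2, which drives S phase and the entry into mitosis. Its arrays read 12.06, 12.23 and 12.36 log2 without glutamine, and 13.85, 13.76 and 13.92 log2 with glutamine. The spread within a group was small beside the gap between the groups of 1.40 log2. The change was -1.63 (SE 0.095, 95% interval -1.85 to -1.40), with the lowest adjusted p of the 6 (limma, 0.000223), and 288 genes fell further.

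The E-type cyclins Ccne1 and Ccne2, which activate Cdk2 at the start of S phase, fell by similar amounts. Ccne1 had levels of 8.61, 8.52 and 8.77 log2 without glutamine, against 9.99, 9.76 and 10.14 log2 with glutamine. Ccne2 had 9.78, 9.60 and 9.49 log2 without glutamine, against 10.91, 10.64 and 10.70 log2 with it. For both genes the groups did not overlap, as for 18.8% of all genes in the downward direction. The change was -1.33 for Ccne1 (SE 0.12, limma adjusted p = 0.000853) and -1.13 for Ccne2 (SE 0.11, limma adjusted p = 0.00111). Replicate 3 without glutamine was the highest of its group for Ccne1, as it was for Ccna2 and Ccnb2, and the lowest of its group for Ccne2.

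Ccnd3 encodes cyclin D3, a G1 cyclin that activates Cdk4 and Cdk6. It read 8.88, 8.85 and 8.93 log2 without glutamine, against 9.24, 9.32 and 9.15 log2 with glutamine. The groups lay 0.23 log2 apart with no overlap. The change of -0.35 (SE 0.071, 95% interval -0.52 to -0.18) passed the threshold (limma adjusted p = 0.0159), but the call was lost without replicate 2 without glutamine (adjusted p = 0.0602) and without replicate 2 with glutamine (adjusted p = 0.057). The pseudogene row Ccnd3-ps was also lower, at 12.33 ± 0.18 log2 without glutamine and 13.11 ± 0.24 log2 with it (SD, n = 3 each; change -0.78, limma adjusted p = 0.0121). That row was brighter than the Ccnd3 row in both groups, and whether either row takes up transcripts of the other was not tested.

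Ccnd2, which encodes cyclin D2, was the gene of the 6 that did not fall. Its levels were 16.34, 16.15 and 16.10 log2 without glutamine, against 16.08, 16.03 and 15.97 log2 with glutamine. Every array without glutamine was above every array with it, by as little as 0.017 log2, an order that 25.0% of all genes shared. The change of 0.17 (SE 0.086, 95% interval -0.037 to 0.37) did not pass (limma adjusted p = 0.207). Its sign depended on the scaling, being -0.14 after quantile normalization and 0.012 after centring each array on its median. Ccnd2 stood near or above 16 log2, the range of a 16-bit scanner, on all 6 arrays, and whether its signal was still proportional to RNA there was not tested.

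**Figure D2:**
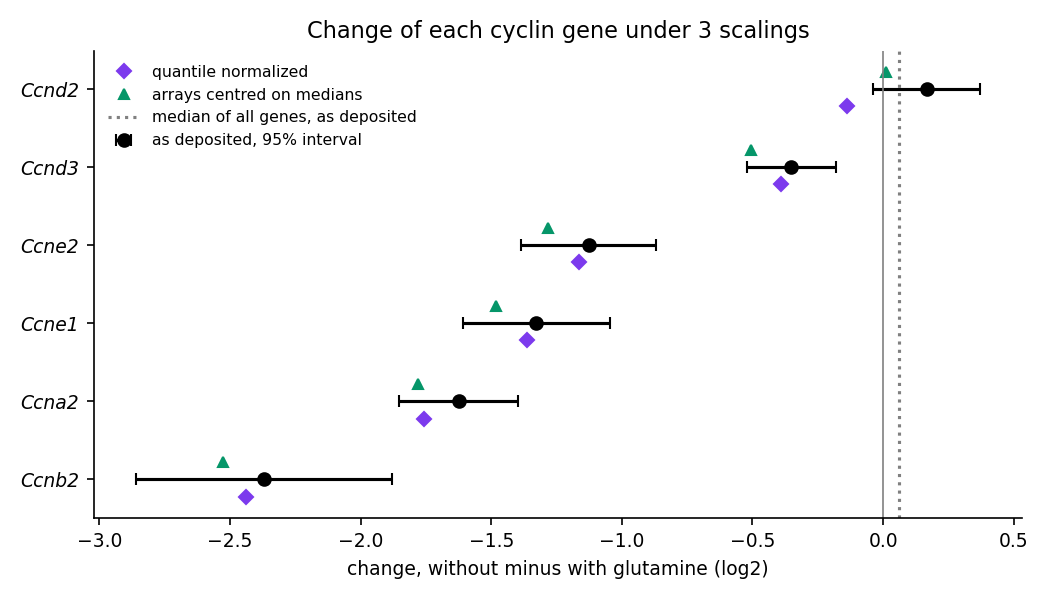
Change of each cyclin gene (log2, without minus with glutamine, horizontal axis) with its 95% interval as deposited (black), after quantile normalization (violet) and after centring each array on its median (green). The order of the genes, Ccnb2 lowest and Ccnd2 highest, was the same under the 3 scalings, and Ccnd2 alone crossed 0.

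All genes had a median change of 0.060 on the deposited scale, of -0.048 when quantile normalized and of -0.095 when centred, so changes were also set against that median. Relative to it, Ccnb2 changed by -2.43, -2.39 and -2.43 under those scalings, Ccnd3 by -0.41, -0.34 and -0.41, and Ccnd2 by 0.11, -0.090 and 0.11. The falls of the S phase and mitotic cyclins thus moved little with the scaling, while the sign of Ccnd2 turned with it. Among the calls over all genes, 41.7% were higher without glutamine on the deposited scale, 21.7% when quantile normalized and 16.6% when centred.

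Paralogs were compared within arrays, as the difference of their rows on the same array. The difference Ccnd2 minus Ccnd3 was 7.46, 7.29 and 7.18 log2 without glutamine, and 6.84, 6.72 and 6.81 log2 with glutamine. All values without glutamine were above all values with it, and the means differed by 0.52 log2. The exact two-sided permutation test gave p = 0.1, the smallest that 3 arrays against 3 allow, and 0.2 after adjustment over the 2 pairs tested, so it could not pass at 0.05. After quantile normalization the difference was 0.25 log2 (exact two-sided permutation p = 0.2), and the doubt about the scale of Ccnd2 near 16 log2 touches this pair too. The difference Ccne1 minus Ccne2 was -1.18, -1.08 and -0.72 log2 without glutamine, and -0.92, -0.89 and -0.57 log2 with glutamine. These groups overlapped, and the shift of -0.20 was no larger than the spread within them (SD 0.24 without and 0.19 with glutamine; exact two-sided permutation p = 0.4, adjusted 0.4).

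The neighbours in the order of the changes were compared in the same way, as a description, since these pairs were chosen after the order was seen. Ccne2 minus Ccnd3 lay between 0.56 and 0.90 log2 without glutamine and between 1.33 and 1.67 log2 with it, and these ranges did not overlap. Ccna2 minus Ccne1 lay between 3.46 and 3.71 log2 without glutamine and between 3.78 and 4.005 log2 with it, a narrow separation. Ccnb2 minus Ccna2 lay between -1.06 and -0.59 log2 without glutamine and between -0.29 and 0.050 log2 with it. On these arrays the fall was thus least for the Ccnd3 row, intermediate for the E-type cyclins and Ccna2, and greatest for Ccnb2. The place of Ccnd3 rests on its own row, and the brighter pseudogene row Ccnd3-ps fell by more (change -0.78).

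**Figure D3:**
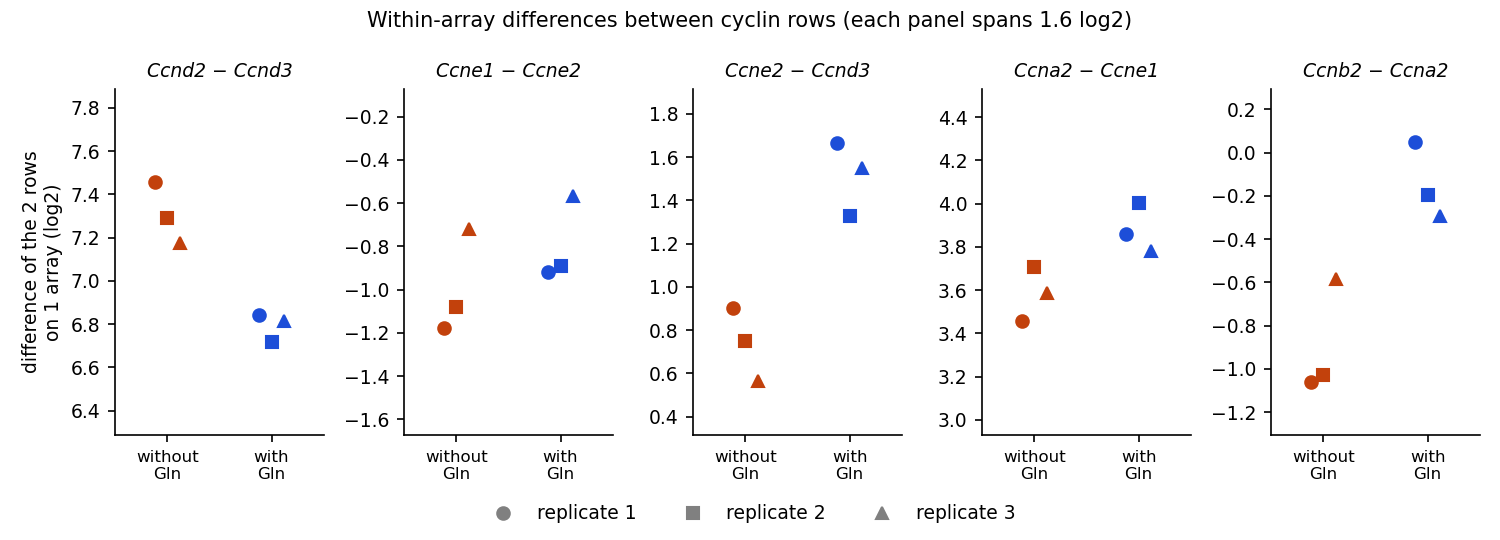
Difference of a pair of cyclin rows on each array (log2, vertical axis), cultures without glutamine (Gln) in orange and with glutamine in blue, symbols by replicate number. The groups separate in 4 of the panels and overlap for Ccne1 minus Ccne2.

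Sequence around the gene start was at hand for 3 of the 6 genes, Ccnb2, Ccne1 and Ccnd3, from RefSeq on GRCm38.p6, and is shown for them because they include the cyclins that fell most and least. Promoters of late cyclin genes are known for CCAAT boxes, bound by the factor NF-Y, and for the cell cycle genes homology region (CHR), bound by the DREAM and MuvB complexes. Each line runs 5′ to 3′ on the gene's strand, 130 bases before the start and 20 from it. Capitals mark CCAAT and, for the CHR, TTTGAA, searched on both strands. The search allowed matches to overlap, though none do in the windows shown. For E2F the word TTCCCGC was searched, likewise the variant TTGGCGC, as well as the variant TTCGCGC, and finally the variant TTGCCGC. None of these matched in the windows shown.
Ccnb2 (chr9:70421535-70421684, minus strand): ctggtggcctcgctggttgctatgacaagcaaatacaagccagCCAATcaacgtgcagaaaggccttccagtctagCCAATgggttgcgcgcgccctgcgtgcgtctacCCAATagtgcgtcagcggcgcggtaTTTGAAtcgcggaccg
Ccne1 (chr7:38107471-38107620, minus strand): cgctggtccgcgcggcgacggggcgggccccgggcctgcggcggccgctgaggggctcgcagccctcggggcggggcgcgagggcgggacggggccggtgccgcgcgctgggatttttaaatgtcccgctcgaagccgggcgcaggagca
Ccnd3, start 1 (chr17:47504921-47505070, plus strand): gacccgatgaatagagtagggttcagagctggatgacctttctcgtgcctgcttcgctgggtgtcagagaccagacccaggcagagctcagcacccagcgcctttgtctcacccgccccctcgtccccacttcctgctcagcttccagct
Ccnd3, start 2 (chr17:47593337-47593486, plus strand): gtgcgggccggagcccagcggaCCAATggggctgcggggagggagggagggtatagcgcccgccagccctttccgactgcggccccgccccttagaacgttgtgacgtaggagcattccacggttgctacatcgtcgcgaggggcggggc

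The Ccnb2 window held 3 CCAAT boxes on the gene's strand, beginning 87, 54 and 21 bases before the start and so spaced by 33 bases, and a TTTGAA beginning 25 bases after the last box begins. Of 32851 windows of the same length, 24.2% held a CCAAT box, 1.06% held 3 or more, 8.74% held TTTGAA and 5.44% held an E2F word. The combination of 3 or more CCAAT boxes and a TTTGAA occurred in 35 windows (0.107%). The Ccne1 window held neither and was 80.0% G and C, against 58.7% for Ccnb2, and the second start of Ccnd3 had 1 CCAAT box. A match is a description of letters and does not show that a factor binds.

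**Figure D4:**
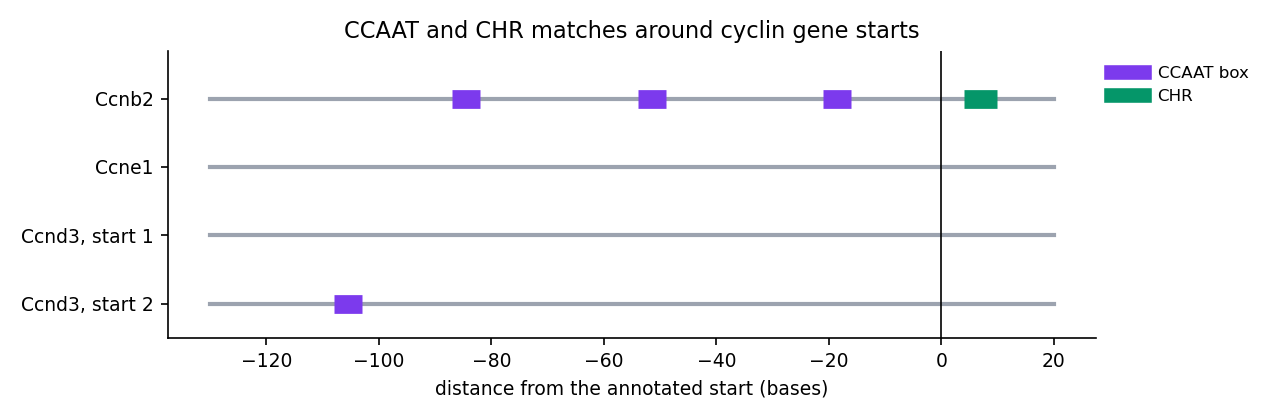
Position of CCAAT boxes (violet) and CHR matches (green) in 4 windows around annotated starts of Ccnb2, Ccne1 and Ccnd3 (distance from the start in bases, horizontal axis; the vertical line is the start). Ccnb2 holds 3 evenly spaced CCAAT boxes and a CHR, the second start of Ccnd3 holds 1 CCAAT box, and the other windows hold neither.

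Of the 4 kinases that these cyclins activate, 3 fell and 1 did not pass, where 13.0% of all genes were called lower and 9.3% higher, and the mitotic kinase gene had the largest change. Cdk1, the mitotic kinase, read 8.83, 8.61 and 8.73 log2 without glutamine, against 10.79, 10.63 and 10.57 log2 with glutamine (change -1.94, limma adjusted p = 0.000106). Cdk2, the partner of cyclins E and A, fell by 0.84, and Cdk4, the partner of the D-type cyclins, fell by 0.34 (limma adjusted p = 0.0188). The call of Cdk4 was lost without replicate 2 or 3 without glutamine or replicate 1 with glutamine (adjusted p up to 0.0619). Cdk6, the other partner of the D-type cyclins, overlapped between the groups, at 14.30 ± 0.15 log2 without glutamine and 14.30 ± 0.13 log2 with it (SD, n = 3 each; limma adjusted p = 0.96).

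Of 7 CDK inhibitor genes, 3 fell and 4 did not pass, with a median change of 0.11, where 13.0% of all genes were called lower and 9.3% higher. Cdkn2d, which encodes the Cdk4 and Cdk6 inhibitor p19, averaged 7.31 ± 0.080 log2 without glutamine and 8.92 ± 0.27 log2 with it (SD, n = 3 each). Cdkn2c, which encodes p18 of the same family, fell by 1.11, and Cdkn1b, which encodes p27, fell by 0.74. Cdkn1a, which encodes p21 and was chosen after its values were seen, averaged 15.90 log2 without glutamine and 15.69 log2 with it, and the groups overlapped, with a sign that turned after quantile normalization (change 0.20 as deposited and -0.12). Its level was near 16 log2 in both groups, and whether its signal was still proportional to RNA was not tested. The other 3, Cdkn1c, Cdkn2a and Cdkn2b, also chosen after their values were seen, were dim, and their arrays without glutamine lay above those with it, as for 25.0% of all genes. Their changes were 0.16, 0.11 and 0.33 (limma adjusted p = 0.132, 0.298 and 0.0911). The array medians were themselves higher without glutamine, at 4.33 to 4.38 log2 against 4.18 to 4.21 log2 with it. How these small changes stand after scaling is not given here, and the list median of 0.11, the change of Cdkn2a, shares that limit. The falls thus took in genes that restrain the D-type cyclin kinases as well as cyclins themselves.

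Of 8 genes that control CDKs by phosphorylation, 6 fell and 2 did not pass, where 13.0% of all genes were called lower and 9.3% higher. The phosphatase genes led: the changes were -1.85 for Cdc25c, -1.33 for Cdc25b and -1.05 for Cdc25a, all activators of cyclin kinases. Pkmyt1, which encodes an inhibitory kinase of Cdk1, fell by 0.84. The list therefore held falls among activators and inhibitors alike.

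Of 22 measured genes for transcription factors and pocket proteins that act on cyclin promoters, 11 fell, 1 rose and 10 did not pass, with a median change of -0.41, where 13.0% of all genes were called lower and 9.3% higher. Mybl2, which encodes B-Myb, a MuvB partner at late cell cycle promoters, averaged 8.57 ± 0.070 log2 without glutamine and 10.46 ± 0.14 log2 with it (SD, n = 3 each; limma adjusted p = 0.000115). The changes were -1.11 for E2f2, an activating E2F gene, -0.78 for the MuvB subunit gene Lin9 and -0.76 for the repressor gene E2f8. The call of E2f8 (limma adjusted p = 0.0421) was lost without any array but replicate 3 without glutamine (adjusted p up to 0.129). The gene that rose, chosen after its values were seen, was Nfya, a subunit of NF-Y, with a change of 0.43 (limma adjusted p = 0.00986), while Nfyc, another subunit also chosen after its values were seen, fell by 0.42, a call lost without replicate 2 without glutamine (adjusted p = 0.0536).

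Of 31 measured genes for the ubiquitination of cyclins, 18 fell, 1 rose and 12 did not pass, with a median change of -0.38, where 13.0% of all genes were called lower and 9.3% higher. Cdc20, which directs the anaphase-promoting complex to B-type cyclins, read 7.79, 7.83 and 7.88 log2 without glutamine, against 10.59, 10.23 and 10.06 log2 with glutamine. Its change of -2.46 was about as large as that of Ccnb2. The changes were -1.57 for Ube2c, the ubiquitin-conjugating enzyme of that complex, -1.34 for Cks1b, a cofactor of the Skp2 ligase, and -1.07 for Fbxo5, an inhibitor of the anaphase-promoting complex. The gene that rose was Fbxw7, the ligase subunit that recognises cyclin E, which was chosen after its values were seen, with 9.55, 9.22 and 9.69 log2 without glutamine, against 9.01, 8.96 and 9.11 log2 with glutamine (change 0.46, limma adjusted p = 0.0438). That call was lost in 10 of 16 alternatives (adjusted p up to 0.152), among them centring, eBayes with trend and robust, array weights, the unmoderated statistic and leaving out any array but replicate 2 without glutamine.

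The other 18 members of the cyclin family, most of which act in transcription or have no settled part in the cycle, gave 3 that fell, 1 that rose and 14 that did not pass, with a median change of -0.092, shares near the 13.0% of all genes called lower and the 9.3% called higher. The changes were -0.96 for Ccng2, -0.78 for Ccnc, the cyclin of the Mediator kinase module, and -0.61 for Ccnyl1. Ccno rose by 0.31 at a level of 3.78 log2 without glutamine and 3.46 log2 with it, below the array medians, and its call was lost after either scaling and without any 1 array (adjusted p up to 0.253). After quantile normalization 6 of these 18 fell, and after centring 8 fell, so this count rests on the scaling. Lower calls over all 30702 genes rose too, from 3988 as deposited to 5252 when quantile normalized and 6126 when centred.

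**Figure D5:**
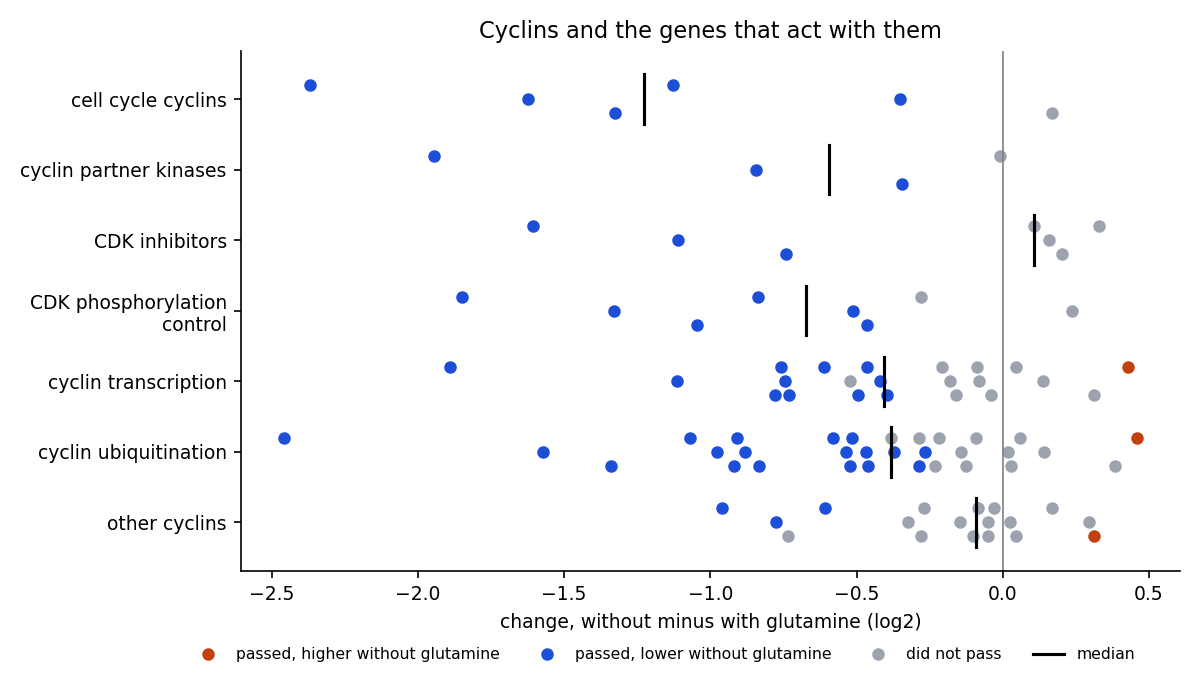
Change of each gene (log2, without minus with glutamine, horizontal axis) for the 6 cyclins and for 6 lists of genes that act with them or share their family; blue points passed and were lower, orange points passed and were higher, grey points did not pass, and black bars are medians. On the deposited scale the medians run between -1.23 for the cell cycle cyclins and 0.11 for the CDK inhibitors.

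The genes with the pattern most like a cyclin were found by the root mean square difference of 6 array values, each gene centred on its own mean. Nearest to Ccne2 were Snrpa1 (0.027 log2), Pparg (0.030 log2) and Cep19 (0.051 log2). Nearest to Ccnd3 were Alg2 (0.018 log2), Olfr506 (0.019 log2) and Ccdc92 (0.024 log2), and nearest to Ccnd2 were Syngr1 (0.020 log2), Smr2 (0.022 log2) and Trim43a (0.024 log2). On 6 arrays of 2 groups, any gene with a like change lies near by this measure.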

How the data were processed

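The authors deposited 1 log2 level for each row of each array. Per the submitters' processing notes, RMA and the Transcriptome Analysis Console 4.0 were used; for the options, array annotation and genome build the sources used here say nothing. Changes are log2 differences on that scale and not folds, since each array held 695 to 887 rows above 16 log2 and a further step on the scale cannot be told. The 6 columns were used as deposited (0 columns of other samples).

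Of 65956 rows, 31258 named 1 gene, 1492 several and 33206 none, by the platform annotation with symbols updated through RefSeq (GRCm38.p6). Each of 441 symbols with several rows was represented by its row of highest mean, leaving 30702 genes. The test was limma 3.58.1 (lmFit, eBayes, two-sided) in R 4.3.3, without minus with glutamine and no covariate, with Benjamini-Hochberg adjustment over all genes at 0.05. Exact permutation tests used scipy 1.17.1. On simulated data with 200 changed genes among 30702, limma recovered 26% of genes changed by 0.5 log2, 64% at 1, 98% at 2 and 100% at 3, with 4 false calls; real data hold far more changes, so these rates are not those of the real comparison.

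Named genes were the members, per list up to 4 with the largest changes past the threshold, and the 3 nearest patterns of Ccne2, Ccnd2 and Ccnd3. Cdk6, the other CDK inhibitors, Nfya, Nfyc, Fbxw7, the pseudogene rows and the cell type markers named fall outside that rule and were chosen after their values were seen. Members and lists were chosen with earlier results of these data known. Ccnh stands in 2 lists. Paralog pairs with Ccnd1 or Ccnb1 were not run, since neither is analysed here. Figures used matplotlib 3.10.9. Precision is limited by the number of arrays.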

Additional observations from a re-analysis of the deposited data

How the results depend on the processing

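The comparison was repeated under 16 alternatives: quantile normalization, centring, genes above the median level, the mean over rows, all rows, eBayes with trend and robust, array weights, an unmoderated statistic, adjusted p under 0.01, a replicate block by number, and each array left out in turn. Ccne1, Ccne2, Ccna2 and Ccnb2 stayed lower and past the threshold in all 16. Their highest adjusted p, each from the unmoderated statistic, were 0.0178, 0.0192, 0.00996 and 0.0199. The change of Ccnd2 reversed to -0.14 after quantile normalization (adjusted p = 0.258) and passed under none of the 16 (adjusted p 0.183 to 0.941). Ccnd3 (change -0.35) was not called at adjusted p under 0.01 because the limit was lower. Its call was also lost without replicate 2 of either group, but kept when any other array was left out (limma adjusted p 0.0188 to 0.0476). Leaving out 1 array gave 4 to 5 cyclin genes lower and 0 higher, with changes of 0.096 to 0.21 for Ccnd2, -0.39 to -0.31 for Ccnd3, -1.43 to -1.24 for Ccne1, -1.21 to -1.05 for Ccne2, -1.70 to -1.55 for Ccna2 and -2.59 to -2.21 for Ccnb2. After quantile normalization Ccnd2 minus Ccnd3 was 0.25 in place of 0.52. Without 1 array the paralog differences lay between 0.44 and 0.59 for Ccnd2 minus Ccnd3 and between -0.34 and -0.088 for Ccne1 minus Ccne2.

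With the replicate block, 5 cyclin genes were lower, as without it (Ccnd3 adjusted p = 0.0455), and 6292 genes were called in all against 6843. Deviations of same-numbered arrays correlated at 0.066, -0.23 and 0.28 for numbers 1, 2 and 3, and those of differently numbered arrays at -0.33 to 0.30. No pairing by number was evident, but with 3 arrays per group these correlations cannot decide whether same-numbered arrays share a source. Calls over all genes fell to 2943 at adjusted p under 0.01, to 3832 with the unmoderated statistic, and to 4060, 4558 and 4344 without replicate 2 or 3 without glutamine or replicate 2 with glutamine. Among genes acting on cyclin promoters 11 fell, but 7 did at adjusted p under 0.01, with the unmoderated statistic or without replicate 2 without glutamine. Lower calls over all genes also dropped, from 3988 to 2143, 2418 and 2666 in those settings in turn. Among ubiquitination genes 18 fell, and 11 did at adjusted p under 0.01. With the unmoderated statistic Cdkn1b, E2f2, E2f8 and Ccnd3-ps missed the threshold (adjusted p = 0.0515, 0.0512, 0.135 and 0.0656), as did Ccno and Fbxw7. Changes that had not passed turned sign for Cdkn1a after quantile normalization (-0.12), for Cdk6 without replicate 2 or 3 without glutamine or replicate 2 with glutamine (0.046, 0.023 and 0.052, where leaving out 1 array gave -0.096 to 0.052), and for Ccnb2-ps with array weights (0.0055) or without replicate 3 without or with glutamine (0.0025 and 0.025, where leaving out 1 array gave -0.16 to 0.025). The cause of these shifts was not tested.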
